A study of Mus musculus and Mus musculus
Oryx dammah with 30 samples.

Results

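The mRNA levels of 10 mouse histone deacetylase genes (Hdac1 to Hdac8, Hdac10 and Hdac11) were followed in embryos reconstructed by nuclear transfer (NT). The genes were taken by name from 3 expression tables of the study, and all 10 were found in each, among 53023 genes in the 2 tables of 4-cell embryos and 55364 genes in the table of 2-cell embryos. Recipients were embryos of C57BL/6 and DBA/2 origin, and donors were C2C12 cells, a myoblast line from C3H mice, so every library mixes RNA of the recipient with RNA from the donor nuclei. All embryos received C2C12 cells and were cultured with 0.1 μg/ml demecolcine, which arrests the cell cycle.

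The first experiment compared 4-cell NT embryos with α-amanitin, an inhibitor of RNA polymerase II (Pol II), and without it, with 3 libraries per group from pools of 3 embryos each. NT began at 46 h post insemination (hpi), and culture lasted 24 h. The second compared 2 groups named D and DR, both without α-amanitin, with 3 libraries each, for which 4 embryos were pooled, again at the 4-cell stage. It belongs to the test of DNA replication, but the labels do not say which of D and DR underwent it, so the groups are called by these names. The paper describes NT before or after replication in this test, so time of NT differs between D and DR as well. Culture lasted 24 h in both. The third compared 2-cell NT embryos without and with α-amanitin, with 6 libraries per group from pools of 5 embryos each. The samples had NT from 21 or 30 hpi, but the columns of the table do not say which. The columns are named NT or Am in 6 libraries, 3 without and 3 with α-amanitin, and R or RAm in the other 6, and results are given over all 12 columns and within each set of 6. In bulk libraries such as these, fewer cells of a type and less RNA per cell cannot be told apart.

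Histone deacetylases remove acetyl groups from lysines of histones and other proteins, which generally goes with compact chromatin and lower transcription. Class I members (Hdac1, Hdac2, Hdac3 and Hdac8) are mainly nuclear. Hdac1 and Hdac2 are close paralogs that form the catalytic core of the Sin3, NuRD and CoREST corepressor complexes, and Hdac3 acts in the NCoR/SMRT complex. The class IIa members followed here (Hdac4, Hdac5 and Hdac7, without Hdac9) shuttle between nucleus and cytoplasm and bind MEF2 factors in muscle. Hdac6, of class IIb, deacetylates tubulin in the cytoplasm, Hdac10 acts on polyamines, and Hdac11 is the only class IV member. Inhibitors of these enzymes are widely used to help cloned embryos develop, and maternal and embryonic Hdac1 and Hdac2 are known to act in preimplantation development.

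Levels are given as FPKM, which is read density per gene length and per 1000000 counted reads, so that genes can be compared within a library. The 4-cell α-amanitin experiment had 1136771 to 3101002 counted reads per library, the D and DR libraries about 2603946 to 19181387 and the 2-cell libraries about 4712268 to 10503779. These totals, to which FPKM are set, include spike-ins in D and DR and in the 2-cell libraries. In the latter, spike-ins took 2.38% to 11.3% of the signal. All 11 oocyte and early embryo markers examined (such as Zp3, Gdf9 and Zar1) were above 0 in every group, while 7 cumulus and granulosa markers summed to at most 2.69 FPKM in any library. The 12 myoblast and mesenchymal markers summed to 187 to 579 FPKM without and 180 to 1970 FPKM with α-amanitin at the 4-cell stage, to 199 to 337 FPKM in DR and 380 to 469 FPKM in D, and to 138 to 4121 FPKM without and 1092 to 2239 FPKM with α-amanitin at the 2-cell stage. Myf5, one of the 2 myogenic regulators in that list, was at 0 in all libraries of 3 of the 6 groups. D and DR libraries differed in this sum without overlap. The 11 oocyte and embryo markers summed to 8726 to 9925 FPKM without and 12197 to 16108 FPKM with α-amanitin at the 4-cell stage and to 3381 to 4041 FPKM in DR and 4575 to 5736 FPKM in D, also without overlap. At the 2-cell stage they summed to 7389 to 12336 FPKM without and 1540 to 8029 FPKM with α-amanitin, with overlap. The part of either marker list in the results was not tested.

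One of the 10 genes shares much of its sequence with another locus. Hdac1 lies on chr4:129516104-129542713, minus strand, of mm10, and Gm10093, its processed pseudogene (an intronless copy made from mRNA), lies on chr17:78491582-78493025, plus strand. Over 1444 aligned bases, which take in nearly the whole coding sequence of Hdac1, 9 bases differ, so that the copies are 99.38% identical. Of the 1989 stretches of 50 bases in the main Hdac1 transcript, 1121 also occur in the Gm10093 transcript. The most divergent 60 bases of the alignment, coding bases 423 to 482 of Hdac1, are shown because they hold 5 of the differences, in capitals, by which a read could be given to one locus or the other.
Hdac1: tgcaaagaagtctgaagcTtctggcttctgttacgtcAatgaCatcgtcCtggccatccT
Gm10093: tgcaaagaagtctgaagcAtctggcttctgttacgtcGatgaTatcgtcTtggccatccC

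Reads were counted on Gm10093 in every library, and their share relative to Hdac1 was not constant. For each 100 reads on Hdac1, between 11.9 and 19.3 were counted on Gm10093 in the 4-cell α-amanitin experiment, between 47.4 and 60.7 in D and DR, and between 28.5 and 46.6 in the 2-cell experiment. The ranges of the 3 tables did not overlap. At the 4-cell stage the number was 18.45 to 19.25 without and 11.94 to 16.46 with α-amanitin. It was 42.31 to 44.06 in the R and 28.53 to 36.57 in the RAm columns of the 2-cell table. Neither of these pairs overlapped, whereas NT (35.1 to 46.6) and Am (36.56 to 46.25) did. All values of the 4-cell α-amanitin table came out as whole reads (within 0.01), against 41.4% to 50.5% in D and DR and 40.3% to 45.3% in the 2-cell table, so no test compares Hdac1 levels between tables. Hdac2, on chr10:36974544-37001889, plus strand, shares none of its 3201 stretches of 50 bases with another gene. The main results for Hdac1 within each experiment are therefore also given with the reads of Gm10093 added. Differences between column sets or stages are given without them.

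**Figure D1:**
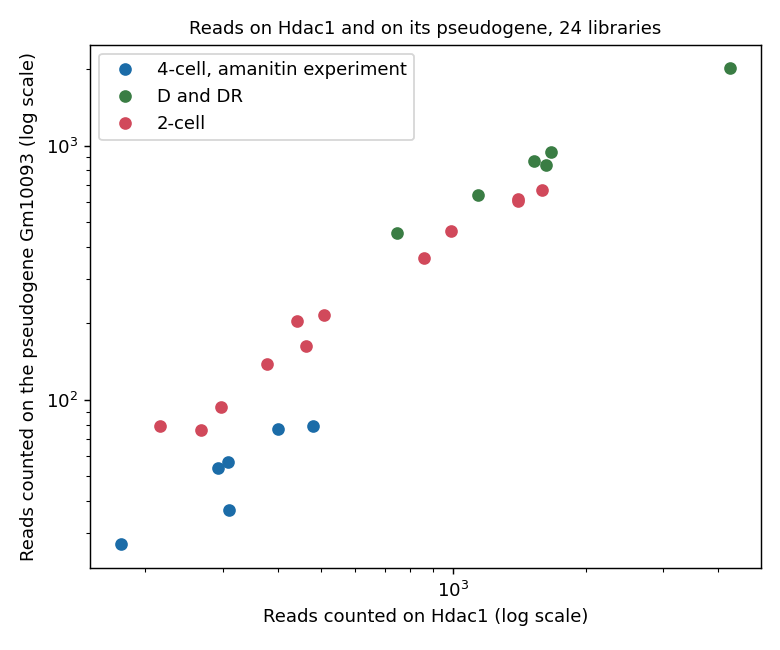
Reads counted on Hdac1 (horizontal, log scale) and on its processed pseudogene Gm10093 (vertical, log scale) in 24 libraries, colored by experiment. Libraries of the 4-cell α-amanitin experiment lie lowest, at 11.9 to 19.3 Gm10093 reads per 100 Hdac1 reads, and D and DR libraries lie highest, at 47.4 to 60.7.

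Hdac1 and Hdac2 made up most of the deacetylase mRNA in each of the 24 libraries. In 4-cell embryos without α-amanitin the mean levels were 61.7 FPKM for Hdac2 and 46.5 FPKM for Hdac1, against 3.68 FPKM for Hdac3 and 1.69 FPKM for Hdac6, the next in order. Hdac2 was above Hdac1 in all 3 of these libraries and their ranges did not overlap, whereas the ranges of Hdac3 and Hdac6 did. With the reads of Gm10093 added to Hdac1, the order held in 2 of the 3 libraries, the S7 library having 64.0 FPKM for Hdac1 against 56.1 FPKM for Hdac2, and the ranges overlapped. With α-amanitin the order of the first pair was turned, with Hdac1 at 48.8 FPKM and Hdac2 at 27.6 FPKM, again without overlap. In D and DR, Hdac1 was first in every library and Hdac2 second. In the 2-cell libraries without α-amanitin, Hdac1 was also first in 6 of 6 libraries, while with α-amanitin Hdac1 was above Hdac2 in 3 of 6.

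**Figure D2:**
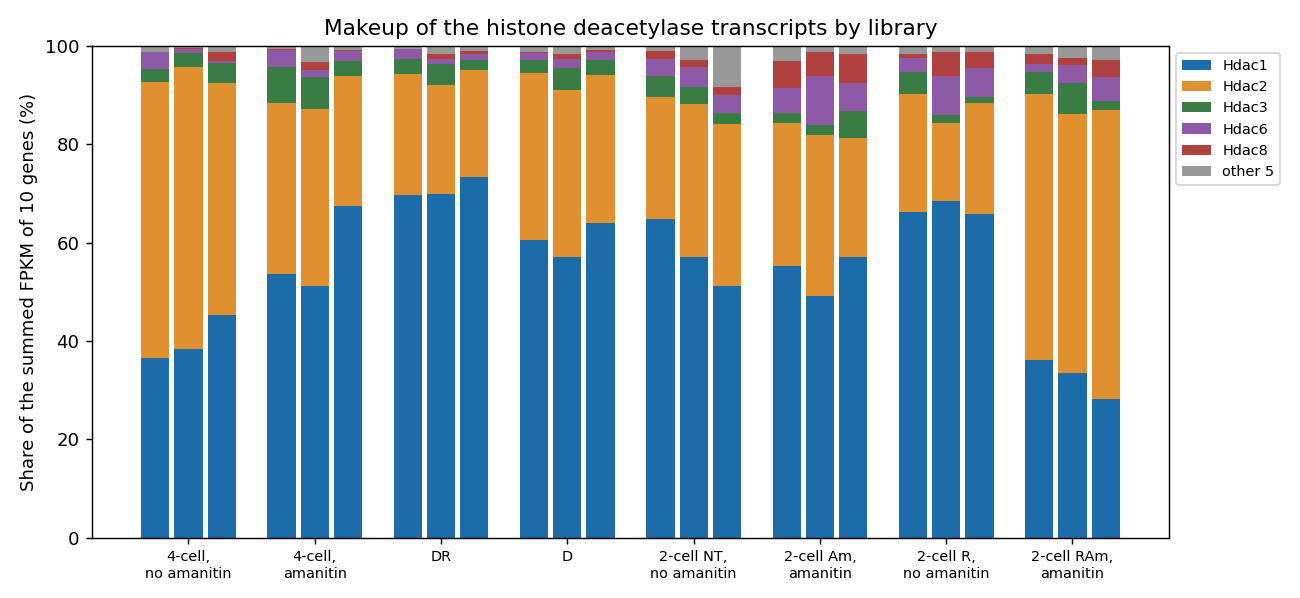
Share of the summed FPKM of the 10 deacetylase genes taken by Hdac1, Hdac2, Hdac3, Hdac6, Hdac8 and the other 5 genes together (vertical, percent), with 1 bar per library. Hdac2 takes the largest share in the 3 libraries of 4-cell embryos without α-amanitin (47.3% to 57.2%) and in the 3 RAm libraries (52.8% to 58.6%), and Hdac1 in the other 18.

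In 4-cell embryos, Hdac2 was the only one of the 4 tested deacetylase genes that passed the test, and it was higher without Pol II inhibition. Hdac2 stood at 56.1, 60.2 and 68.9 FPKM without α-amanitin and at 22.1, 29.2 and 31.7 FPKM with it. The groups did not overlap, which was also true of 35.2% of all genes tested. The mean was 2.23 times higher without the inhibitor, and the log2 change was 1.14 ± 0.27 (SE, adjusted p = 0.0296, limma with Benjamini-Hochberg adjustment over 9884 genes). In this contrast 12.2% of the genes tested passed the threshold of 0.05, 1093 higher and 112 lower without α-amanitin (760 and 223 with median-of-ratios scaling), and 1 of the 4 deacetylase genes tested did so. The number of genes called moved from 1205 to 63 without S7, 93 without S15, 136 without S17, 529 without S18, 707 without S8 and 1493 without S16. None of the 4 was also changed at least 4-fold, as 6.57% of the genes tested were. The median change of all genes was 0.37, so Hdac2 lay 0.78 above it, with 78.2% of genes below it. The call was lost with median-of-ratios scaling (0.84, adjusted p = 0.0725, limma), without the filter on low FPKM (adjusted p = 0.0818, limma), without the mean-variance trend (adjusted p = 0.0526, limma) and on leaving out any of the libraries S7, S15 and S17 without or S18 with α-amanitin, where the change was 1.06 to 1.24 and the adjusted p was 0.0613 to 0.152.

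Hdac1, the paralog of Hdac2, stood at 39.4, 46.3 and 53.7 FPKM without and at 44.9, 44.9 and 56.6 FPKM with α-amanitin. These ranges overlapped. The log2 change of Hdac1 was -0.07 ± 0.26 (SE, adjusted p = 0.880, limma), and -0.02 ± 0.25 with the reads of Gm10093 added. The ratio of Hdac1 to Hdac2 within a library does not depend on how libraries are scaled. This ratio was 0.654, 0.672 and 0.957 without α-amanitin and 1.42, 1.54 and 2.56 with it. The log2 ratio was lower without the inhibitor by a mean of -1.25 with no overlap of the groups (two-sided exact permutation test, p = 0.1, the smallest that 3 against 3 libraries allow, and 0.125 adjusted over 10 such comparisons). With the reads of Gm10093 added to Hdac1, the difference was -1.19. The ratio was chosen after the data were seen, and it is not independent of the Hdac2 change given above. How many other pairs of genes separate the groups in this way was not tested.

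Hdac3 had 2.94, 3.39 and 4.71 FPKM without and 2.50, 5.68 and 6.09 FPKM with α-amanitin. Hdac6 had 0.477, 1.03 and 3.55 FPKM without and 1.36, 1.73 and 2.88 FPKM with it. Both sets of ranges overlapped, and neither gene passed the test (log2 change -0.25 ± 0.44 for Hdac3 and -0.29 ± 0.50 for Hdac6, SE). The other 6 genes did not have an FPKM of at least 1 in 3 libraries, and none was called without this filter. The summed FPKM of all 10 genes was 107 to 120 without and 83.8 to 87.9 with α-amanitin, without overlap.

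**Figure D3:**
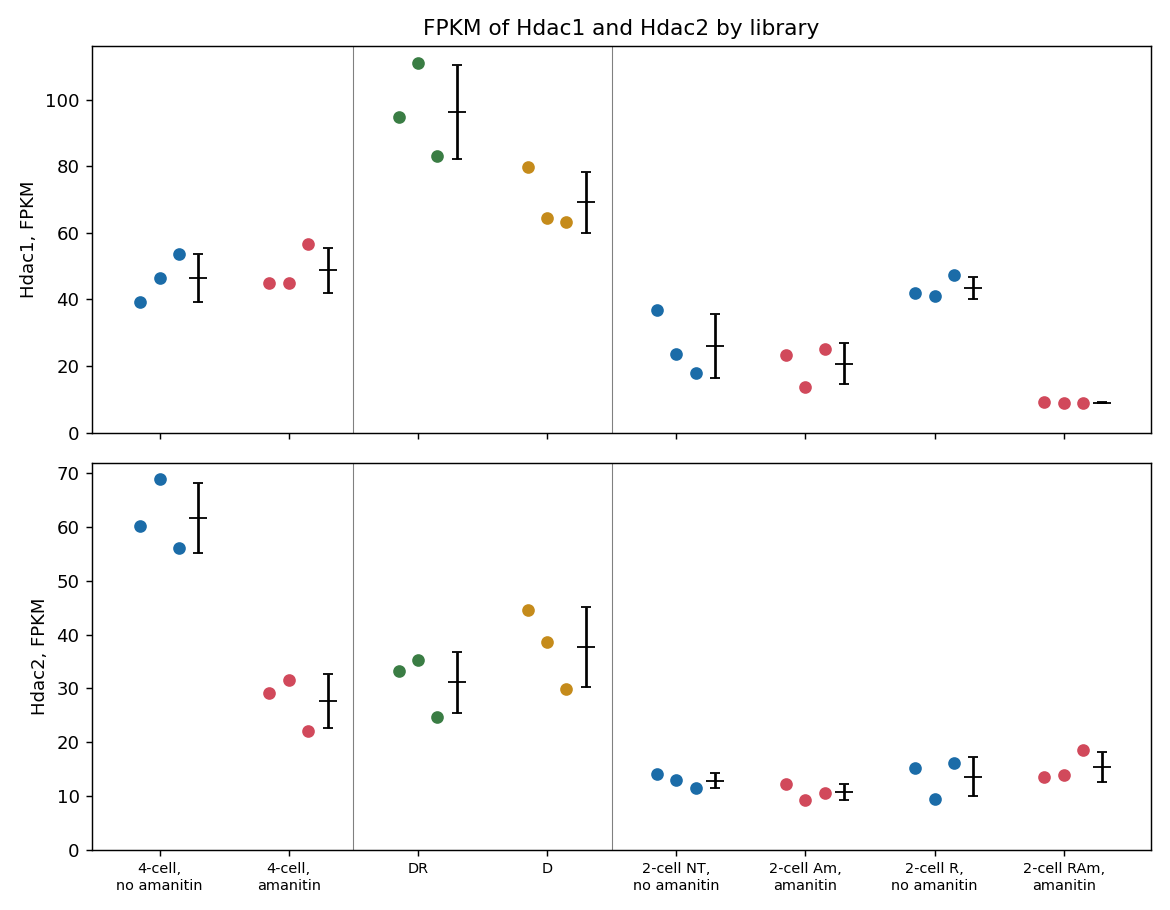
FPKM of Hdac1 (top) and Hdac2 (bottom) in each library (dots) with the group mean and SD beside them, by group; vertical lines separate the 3 experiments, whose levels were not made comparable. Hdac2 is higher without α-amanitin at the 4-cell stage (mean 61.7 against 27.6 FPKM), and Hdac1 is higher in the R than in the RAm columns at the 2-cell stage (mean 43.4 against 8.96 FPKM).

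Between D and DR embryos, neither treated with α-amanitin, no deacetylase gene and no other gene of the table passed the test. Hdac1 stood at 83.1, 94.8 and 111 FPKM in DR and at 63.4, 64.4 and 79.8 FPKM in D. Every DR library was above every D library for Hdac1, as for 8.21% of all genes tested, and groups did not overlap in either direction for 12.2%. The log2 change was 0.47 ± 0.22 (SE, adjusted p = 0.788, limma with Benjamini-Hochberg adjustment over 14570 genes), and 0.49 ± 0.21 with the reads of Gm10093 added. Hdac2 stood at 24.7, 33.3 and 35.3 FPKM in DR and at 29.8, 38.6 and 44.6 FPKM in D, with overlap, and its log2 change was -0.26 ± 0.26 (SE, adjusted p = 0.852, limma). In this contrast 0.0% of the genes tested were called by limma, 0 of 14570. On FPKM as deposited, 897 had an unadjusted p under 0.05, with none of the 4 tested deacetylase genes among them. With the reads of Gm10093 added to Hdac1 the number was 898, and again 0 were called.

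The ratio of Hdac1 to Hdac2 was 2.85, 3.15 and 3.36 in DR and 1.67, 1.79 and 2.13 in D. The groups did not overlap in this ratio, which was chosen after the data were seen. How many other pairs of genes do so was not tested. The mean log2 ratio was higher by 0.75 in DR (two-sided exact permutation test, p = 0.1, the smallest possible, and 0.125 adjusted over the 10 comparisons), and by 0.77 with the reads of Gm10093 added. Depth differed between the groups, with about 2603946 to 4252278 reads in DR and 6059974 to 19181387 in D, and time of NT differed too. The part of either in the ratio was not tested. When FPKM were scaled to the spike-ins, whose share of the signal ranged from 0.018% to 0.776% over these libraries, Hdac1 turned to -1.18 ± 2.39 (SE), with a median of -1.41 over all genes.

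Hdac3 had 2.29, 4.07 and 6.78 FPKM in DR and 3.13, 3.57 and 4.88 FPKM in D. Hdac6 had 1.45, 1.60 and 2.76 FPKM in DR and 1.66, 1.82 and 2.09 FPKM in D. For both genes the DR range contained the D range, with log2 changes of 0.07 ± 0.37 and 0.02 ± 0.28 (SE).

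At the 2-cell stage Hdac1 was the deacetylase gene that passed the test, and it was higher without α-amanitin. Over all 12 columns, Hdac1 had 17.8 to 47.2 FPKM without α-amanitin (median 38.8) and 8.82 to 25.04 FPKM with it (median 11.5), with overlapping ranges. The log2 change was 1.23 ± 0.39 (SE, adjusted p = 0.0183, limma with Benjamini-Hochberg adjustment over 13531 genes). In this contrast 52.6% of the genes tested were called, 5953 higher and 1163 lower without α-amanitin (3417 and 2141 with median-of-ratios scaling, 10509 and 181 with spike-ins), against 1 of the 5 deacetylase genes tested. None of the 5 was also changed at least 4-fold, as 15.8% of the genes tested were. Groups that did not overlap were seen for 22.2% of all genes and for none of these 5. The median change of all genes was 0.83, so Hdac1 lay 0.40 above it. With the reads of Gm10093 added the change was 1.30 ± 0.41. The call rested on the scaling, since with median-of-ratios scaling the change was 0.45 (adjusted p = 0.191, limma) and with scaling to spike-ins 2.55 (adjusted p = 0.000606, limma).

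The other 4 tested members did not pass the test. Hdac2 had 9.41 to 16.2 FPKM without (median 13.6) and 9.23 to 18.6 FPKM with α-amanitin (median 12.9), a log2 difference of 0.03 ± 0.30 (SE, adjusted p = 0.938, limma). The log2 differences were 0.21 ± 0.28 for Hdac3, 0.40 ± 0.33 for Hdac6 and -0.04 ± 0.32 for Hdac8 (SE), and none passed the test. All 4 lay below the median of all genes. With spike-in scaling, Hdac2, Hdac3 and Hdac6 were also called, at 1.34, 1.01 and 1.30, whereas with median-of-ratios scaling they were at -0.75, -0.27 and -0.08 and not called. Spike-ins took 2.38% to 6.26% of the signal without and 6.54% to 11.3% with α-amanitin, so that the ratio of gene to spike-in signal was higher without the inhibitor in every library (two-sided exact permutation test over 924 splits, p = 0.0022, the smallest possible).

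**Figure D4:**
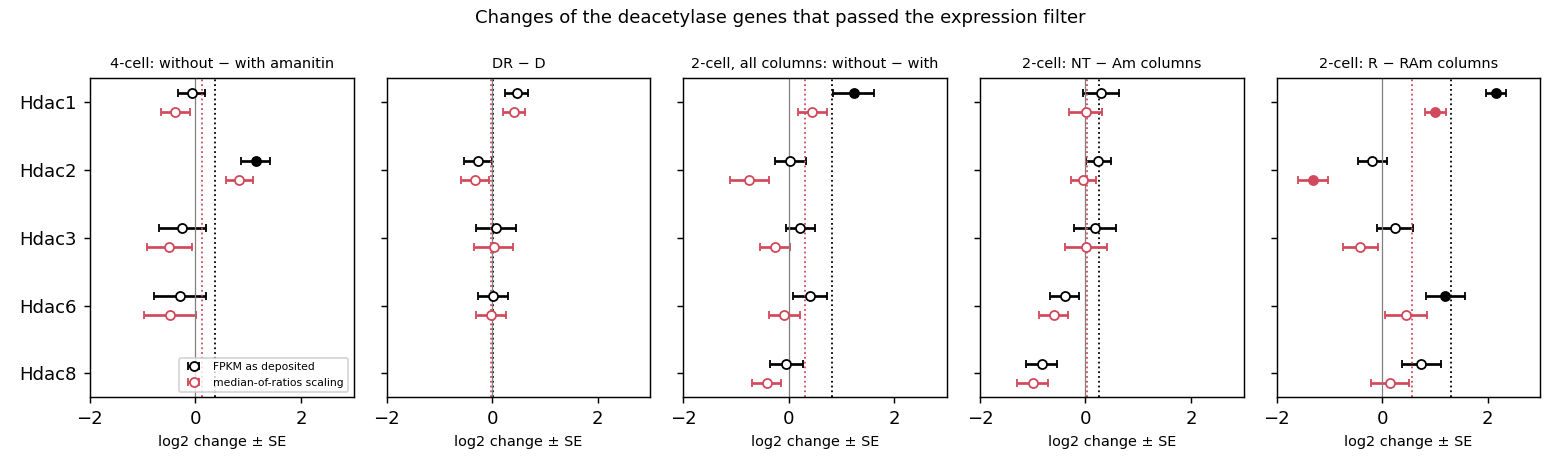
Log2 change ± SE (horizontal) of the deacetylase genes that passed the expression filter, in 5 contrasts, for FPKM as deposited (black) and with median-of-ratios scaling (red); filled dots have an adjusted p under 0.05 and dotted lines mark the median of all genes. Hdac2 is the only filled black dot at the 4-cell stage (1.14), and Hdac1 (2.15) and Hdac6 (1.20) are filled in the R and RAm columns.

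Within the 2-cell table, the effect of α-amanitin on FPKM as deposited differed between the sets of columns for Hdac1, Hdac6 and Hdac8, and with median-of-ratios scaling for Hdac2 instead. In the R and RAm columns, Hdac1 stood at 41.0, 42.0 and 47.2 FPKM without and at 8.82, 8.95 and 9.12 FPKM with α-amanitin. The groups lay far apart, with a mean 4.84 times higher without the inhibitor and a log2 change of 2.15 ± 0.19 (SE, adjusted p = 5.38e-05, limma). In these columns 76.8% of the genes tested were called, 39.2% with a change of at least 4-fold, and 78.5% did not overlap. Hdac1 met each of these criteria and Hdac6 was called below 4-fold, while Hdac2, Hdac3 and Hdac8 were not called. The median of all genes was 1.31, and with median-of-ratios scaling Hdac1 was still called (1.01, adjusted p = 0.00315, limma), as it was with spike-ins (3.98). In the NT and Am columns, Hdac1 stood at 17.8, 23.7 and 36.7 FPKM without and at 13.8, 23.3 and 25.04 FPKM with α-amanitin. These ranges overlapped, and the log2 change was 0.30 ± 0.34 (SE, adjusted p = 0.569, limma), where 16.9% of the genes tested were called. With median-of-ratios scaling the change was 0.003 and with spike-ins 1.10, neither called. On leaving out each library it was 0.03 to 0.53. The change in Hdac1 was larger in the R columns by 1.85 (adjusted p = 0.0030 for the difference, limma). For 44.5% of all genes this difference was called, with a median of 0.76, and with median-of-ratios scaling it was 0.75 for Hdac1 and not called (adjusted p = 0.139, limma). With the reads of Gm10093 added, the Hdac1 changes were 2.29 in the R and 0.30 in the NT columns.

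Hdac2 did not pass the test in either set of columns. It stood at 9.41, 15.2 and 16.2 FPKM in R and at 13.6, 13.9 and 18.6 FPKM in RAm, and at 11.4, 13.0 and 14.2 FPKM in NT and 9.23, 10.6 and 12.3 FPKM in Am. Both pairs of groups overlapped, and the log2 changes were -0.18 ± 0.28 and 0.25 ± 0.24 (SE). The value in the R columns depended on the scaling, being -1.31 with median of ratios (adjusted p = 0.00528, limma) and 1.66 with spike-ins (adjusted p = 0.00116, limma). The difference between the sets was -0.43 as deposited (adjusted p = 0.349, limma) and -1.55 with median of ratios (adjusted p = 0.00494, limma). The ratio of Hdac1 to Hdac2 was 2.77, 2.91 and 4.35 in R and 0.483, 0.633 and 0.672 in RAm, but 1.56, 1.83 and 2.59 in NT and 1.495, 1.90 and 2.36 in Am. The mean log2 ratio was higher without α-amanitin by 2.47 in the R columns and by 0.05 in the NT columns (two-sided exact permutation tests, p = 0.1 and 0.8, with 0.1 the smallest possible). Over all 12 columns it was higher by 1.26 (two-sided exact permutation test, p = 0.0195, and 0.108 adjusted over the 10 comparisons). With the reads of Gm10093 added to Hdac1, the differences were 2.59 in the R columns, 0.04 in the NT columns and 1.315 over all 12.

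Hdac6, the tubulin deacetylase, differed between the sets of columns too. It stood at 1.77, 4.25 and 4.81 FPKM in R and at 0.370, 0.983 and 1.57 FPKM in RAm, but at 1.27, 1.75 and 1.94 FPKM in NT and at 2.16, 2.47 and 2.80 FPKM in Am. Neither pair overlapped, with every R library above every RAm library and every NT library below every Am library. In the NT and Am columns 38.0% of all genes tested did not overlap. The log2 change was 1.20 ± 0.37 (SE, adjusted p = 0.0196, limma) in the former and -0.39 ± 0.28 (SE, not called) in the latter, which turned to 0.18 with spike-in scaling (adjusted p = 0.742, limma). The difference of 1.59 was called (adjusted p = 0.0147, limma) but not with median-of-ratios scaling (0.87, adjusted p = 0.209, limma). The call in the R columns was lost with that scaling (0.45) and without r1, r2 or RAm1 (0.96 to 1.07, adjusted p = 0.0606 to 0.0866, limma), where r1 and r2 are libraries of the R columns.

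Hdac8, a class I enzyme that deacetylates cohesin, also differed between the sets. It stood at 0.600, 0.610 and 0.952 FPKM in NT and at 1.40, 2.28 and 2.59 FPKM in Am, without overlap, and at 0.574, 2.35 and 2.87 FPKM in R and 0.351, 0.525 and 1.12 FPKM in RAm, with overlap. Hdac8 entered the NT and Am fit only through the Am libraries, since every NT value was below 1 FPKM. The lack of overlap there, seen for 38.0% of all genes tested, is thus not separate support. The log2 changes were -0.83 ± 0.29 and 0.74 ± 0.37 (SE), neither called. With spike-in scaling they were -0.34 and 1.71, the latter called (adjusted p = 0.00382, limma), and without R3 the change in the R columns was 1.14 and called (adjusted p = 0.0288, limma). Their difference of 1.57 was called (adjusted p = 0.0207, limma), but not with median-of-ratios scaling (0.92, adjusted p = 0.173, limma) or without r1 or r2 (1.32 and 1.42, adjusted p = 0.0533 and 0.0512, limma). Hdac3 had log2 differences of 0.24 ± 0.33 in the R and 0.19 ± 0.40 in the NT columns (SE), and its ranges overlapped in both. In the R columns the value was -0.41 with median-of-ratios scaling and 1.30 with spike-ins, where it was called (adjusted p = 0.00944, limma).

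The amanitin contrast was also compared between the stages. The difference, 2-cell minus 4-cell, was 1.30 for Hdac1 (adjusted p = 0.176, limma) and -1.11 for Hdac2 (adjusted p = 0.144, limma), and none of the deacetylase genes was called, where 4.43% of the 17748 genes tested were. The tables were normalized separately, and time of NT and number of pooled embryos differ with the stage. The share of reads counted on Gm10093 rather than Hdac1 also differs between the tables. When only the R and RAm columns stood for the 2-cell stage, 51.0% of 15858 genes were called, with a median of 0.71, and Hdac1 (2.23, adjusted p = 0.000107, limma) and Hdac2 (-1.33, adjusted p = 0.0115, limma) were among them. When only the NT and Am columns did, 5.08% of 15657 genes were called, with a median of -0.07, and Hdac1 (0.37, adjusted p = 0.674, limma) and Hdac2 (-0.90, adjusted p = 0.151, limma) were not.

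The remaining members were near the limit of detection. The class IIa genes Hdac4, Hdac5 and Hdac7 never exceeded 1.07 FPKM, which Hdac7 reached in the NT3 library, and 63 of their 72 values were above 0. Hdac5 was above 0 in all 24 libraries with a median of 0.267 FPKM, Hdac4 in 22 with a median of 0.174 FPKM, and Hdac7 in 17 with a median of 0.0628 FPKM. All 3 Hdac7 values in 4-cell embryos with α-amanitin were 0. Hdac10 reached 1 FPKM in 4 libraries, at most 1.56 FPKM in the 4-cell library S18 with α-amanitin. Hdac11 was at 0 in 18 of 24 libraries, and its highest value, 0.744 FPKM, came from the RAm3 library. In the 4-cell α-amanitin experiment no library held more than 14 reads on any class IIa gene, while the deepest D library, D4, held 56 on Hdac4. None of these class IIa genes passed the filter, and without the filter none was called in the 3 experiments (adjusted p = 0.273 for Hdac7 at the 2-cell stage, limma, the lowest). In addition, 22.8% of the 50-base stretches of the main Hdac11 transcript also occur in transcripts of other genes, mostly of Gm44002.

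**Figure D5:**
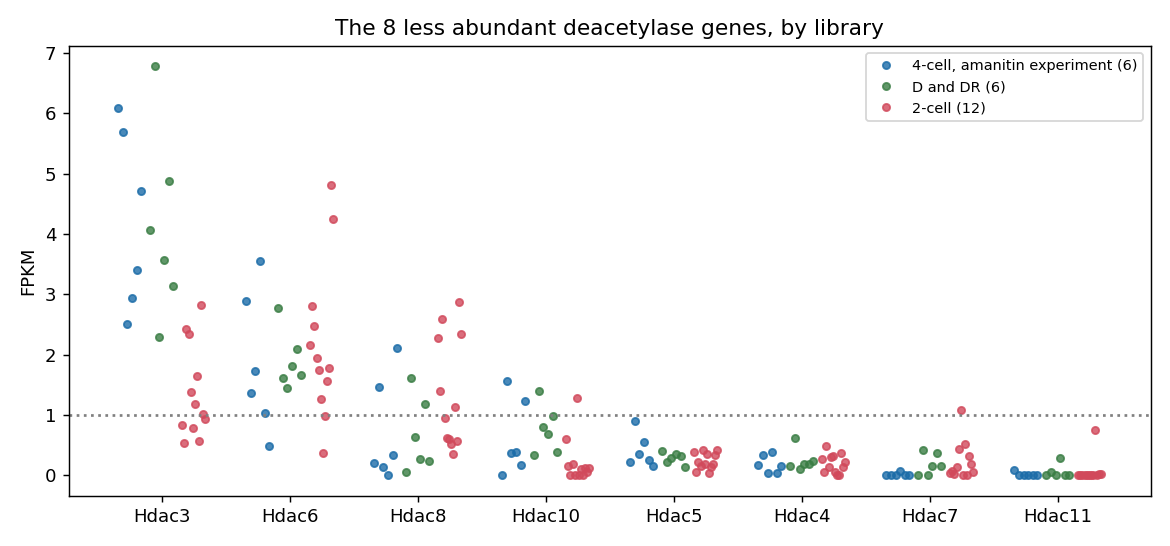
FPKM of the 8 less abundant deacetylase genes (vertical, linear scale) in each of 24 libraries, colored by experiment, with a dotted line at 1 FPKM. Hdac3 and Hdac6 are at or above 1 FPKM in 19 and 21 libraries, Hdac8 in 10 and Hdac10 in 4, whereas Hdac11 is at 0 in 18.

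Subunits of the corepressor complexes that contain Hdac1, Hdac2 or Hdac3 were examined next. Of 39 such genes, 27 were tested in the 4-cell amanitin contrast, where 2 were called higher without α-amanitin and 0 lower, beside 12.2% of all genes called, with a median log2 change of 0.57 against 0.37 for all genes. At the 2-cell stage 14 of 30 were called higher and 1 lower, beside 52.6% of all genes, with a median of 0.89 against 0.83, with median-of-ratios scaling 8 higher and 4 lower, and with spike-ins 26 higher and 0 lower. In the R and RAm columns 20 of 28 were called higher and 3 lower, and in the NT and Am columns 2 of 31 higher and 1 lower, where 76.8% and 16.9% of all genes were called. In the R and RAm columns the count was 10 higher and 7 lower with median-of-ratios scaling and 25 higher and 0 lower with spike-ins. None of the 31 tested was called between DR and D.

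Mier3, one of the genes of this list, was called at both stages. Its mean was 122 ± 10.7 FPKM without and 38.2 ± 2.84 FPKM with α-amanitin in 4-cell embryos (SD, n = 3, log2 change 1.65, adjusted p = 0.00715, limma) and 129 ± 49.3 against 24.0 ± 8.78 FPKM in 2-cell embryos (SD, n = 6, 2.29, adjusted p = 0.00129, limma). Sap30, a Sin3 complex subunit, had 102 ± 75.8 against 7.31 ± 4.15 FPKM at the 2-cell stage (SD, n = 6, 3.29, adjusted p = 0.00236, limma). Without α-amanitin Sap30 stood at 168 ± 11.8 FPKM in R and at 35.3 ± 30.6 FPKM in NT (SD, n = 3), so it also varied within the NT columns. Ing1, a Sin3 subunit that reads methylated histone H3, and Kdm1a, the CoREST demethylase, were called at the 2-cell and not at the 4-cell stage, with log2 changes of 2.15 and 2.10 (adjusted p = 0.014 and 0.00174, limma), while their 4-cell log2 differences were 0.47 and 0.03. The difference between stages, 1.68 for Ing1 and 2.08 for Kdm1a, was not called (adjusted p = 0.284 and 0.0802, limma). These calls over all 12 columns remained with median-of-ratios scaling for all 4 genes. Within the NT and Am columns none of the 4 was called (adjusted p = 0.0649 to 0.132, limma), and all 4 were in the R and RAm columns, where Ing1 had 3.51 against 0.79 in the NT and Am columns and Kdm1a 2.98 against 1.22.

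Of the 7 sirtuins, the NAD-dependent deacetylases, 2 of 4 tested were called higher at the 2-cell stage and 0 of 5 at the 4-cell stage, where 52.6% and 12.2% of all genes were called. Their median log2 changes were 1.10 and 0.21, beside 0.83 and 0.37 for all genes. Sirt1 had 43.2 ± 10.5 against 14.8 ± 11.5 FPKM (SD, n = 6, log2 change 1.86, adjusted p = 0.0088, limma), and Sirt6, not called with median-of-ratios scaling, had 5.26 ± 2.43 against 1.80 ± 1.65 FPKM (SD, n = 6). In the NT and Am columns 0 of 5 sirtuins were called (Sirt1 0.80 and Sirt6 0.34, adjusted p = 0.0951 and 0.583, limma), and in the R and RAm columns 4 of 4 were (Sirt1 2.92 and Sirt6 2.27), where 16.9% and 76.8% of all genes were called. With median-of-ratios scaling 3 of 4 were called in the R and RAm columns and 1 of 4 over all 12 columns. With spike-ins 4 of 4 were called over all 12 columns.

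Acetyltransferases oppose the deacetylases. Of 11 genes, all tested at the 4-cell stage, 2 were called higher at the 4-cell stage and 5 of 10 at the 2-cell stage, with 0 lower, where 12.2% and 52.6% of all genes were called, and medians of 0.29 and 0.85 lay beside those of all genes, 0.37 and 0.83. With median-of-ratios scaling 0 were called at the 4-cell stage, and 2 were called higher and 1 lower at the 2-cell stage. With spike-ins 8 of 10 were called higher and 0 lower at the 2-cell stage. Hat1, which acetylates new histone H4, was the most abundant of those named, with 289 ± 49.9 against 123 ± 54.2 FPKM at the 4-cell stage (SD, n = 3, log2 change 1.32, adjusted p = 0.0486, limma) and 67.5 ± 31.5 against 16.3 ± 5.39 FPKM at the 2-cell stage (SD, n = 6, 1.94, adjusted p = 0.00127, limma). Kat7 was called at both stages as deposited (2.31 and 1.03), and Ep300 and Kat2b at the 2-cell stage (1.52 and 1.39). With median-of-ratios scaling the 2-cell call of Ep300 remained (adjusted p = 0.0368, limma), and those of Kat7 (0.42, adjusted p = 0.361, limma) and Kat2b (1.03, adjusted p = 0.0811, limma) and the 4-cell calls of Kat7 and Hat1 (adjusted p = 0.0523 and 0.0882, limma) were lost. Kat7 was not called in the NT and Am columns either (adjusted p = 0.159, limma). Hat1 was called there (1.84, adjusted p = 0.0178, limma), also with median-of-ratios scaling (1.54, adjusted p = 0.0205, limma). It was the 1 of 10 tested that was, where 16.9% of all genes were called. Within the sets of columns, the log2 change was 2.50 for Ep300 and 2.48 for Kat2b in the R columns, both called, and 0.55 and 0.30 in the NT columns (adjusted p = 0.225 and 0.558, limma).

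BET proteins bind the acetylated lysines that deacetylases remove. Of the 4 genes, all tested, 1 was called higher at the 4-cell and 2 at the 2-cell stage, where 12.2% and 52.6% of all genes were called. At the 2-cell stage 1 was called higher with median-of-ratios scaling and 4 with spike-ins. Brd2 was called at both stages, with 8.36 ± 0.871 against 0.691 ± 0.226 FPKM at the 4-cell stage (SD, n = 3, log2 change 2.47, adjusted p = 0.00869, limma) and 5.02 ± 1.95 against 1.13 ± 0.788 FPKM at the 2-cell stage (SD, n = 6, 1.52, adjusted p = 0.00266, limma), also with median-of-ratios scaling. In the NT and Am columns as deposited, Brd2 was not called (1.00, adjusted p = 0.0976, limma), nor was any other of the 4 genes. Brd3 was called at the 2-cell stage as deposited (1.20), but not with median-of-ratios scaling (0.56, adjusted p = 0.163, limma) or in the NT and Am columns (0.34, adjusted p = 0.584, limma). Of the 4 MEF2 genes, the partners of class IIa enzymes, none passed the filter in the 4-cell amanitin experiment, and 2 of 2 tested were called higher at the 2-cell stage, Mef2b with 4.86 ± 1.66 against 1.30 ± 1.04 FPKM and Mef2a with 1.62 ± 0.515 against 0.627 ± 0.446 FPKM (SD, n = 6), where 52.6% of all genes were called. Mef2a was not called with median-of-ratios scaling (0.36, adjusted p = 0.251, limma), and 2 of 2 were called with spike-ins. In the NT and Am columns neither was called (adjusted p = 0.296 for Mef2b and 0.139 for Mef2a, limma), and in the R and RAm columns Mef2b was and Mef2a was not (adjusted p = 0.0526, limma). Between DR and D no gene of these 4 lists was called.

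Across the 24 libraries the genes whose log2(FPKM + 1) followed Hdac1 most closely, of 14382 compared, were Rcc1 (Pearson r = 0.957), Gm6652 (0.954) and Adrm1 (0.944). Those closest to Hdac2 were Mtpap (0.934), Anp32a (0.929) and Ppfibp2 (0.906). The libraries differ in table, stage, experiment and depth together, and the share of reads counted on Gm10093 rather than Hdac1 differs between the tables, so these values describe that shared variation.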

How the data were processed

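Libraries were made with a SMART-seq kit from pooled NT embryos, and the columns of the tables were mapped to groups by their names. The authors filtered and trimmed reads (Trimmomatic, Trim Galore and Cutadapt) and mapped them to mm10 with STAR. The submitters' processing notes also name featureCounts, and how multi-mapped reads were counted is not given in the sources used here. The authors deposited FPKM, which were used without rescaling. Whole or fractional reads were recovered from FPKM and gene length. In the table with D and DR, 4 columns without a group were not used. The oryx libraries were not analysed here. A gene entered a fit if at least 3 libraries (6 for the 12 2-cell columns) reached 1 FPKM. Fits used limma 3.58.1 (R 4.3.3), with the values transformed as log2(FPKM + 1) and the variance prior following the mean, and p-values were adjusted by Benjamini-Hochberg over all tested genes of a table; such changes are smaller than those of FPKM for low genes. The difference between column sets or stages was a contrast of 4 group means. Calls had an adjusted p under 0.05. The code was tested on simulated data. Ratios were tested by exact permutation (scipy 1.17.1). Transcript sequences came from GENCODE vM21. Intervals cover the spread between pools, which may be partly technical. The deacetylase genes and gene lists were chosen with earlier results of these data known. Named genes are the 10 deacetylases, for each list up to 4 genes with the largest change among those called in either amanitin contrast, and, among genes with a mean FPKM of at least 1, the 3 most correlated with Hdac1 and with Hdac2. The split of 2-cell columns by name, the addition of Gm10093 reads and the ratios were chosen after the data were seen. Alternatives for the 3 experiments were median-of-ratios scaling, a pseudocount of 0.1, no filter, no variance trend and leaving out each library, with spike-in scaling where spike-ins are listed (D and DR, 2-cell) and limma voom on recovered reads for the 4-cell α-amanitin experiment only.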

Additional observations from a re-analysis of the deposited data

Results flagged for a closer look

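The effect of α-amanitin differed between the R and NT columns of the 2-cell table for Hdac1 (difference of log2 changes 1.85), Hdac6 (1.59) and Hdac8 (1.57), each by the test of the difference (adjusted p = 0.0030, 0.0147 and 0.0207, limma), where 44.5% of all genes passed the same test. With median-of-ratios scaling none of the 3 was called (0.75, 0.87 and 0.92), and Hdac2 was (-1.55, adjusted p = 0.00494, limma). In the 2-cell groups of 6 libraries, 4 single values stood apart from the others by Dixon's criterion. These were the Hdac10 value of 0.605 FPKM in the Am1 library, that of 1.29 FPKM in the NT3 library, the Hdac11 value of 0.744 FPKM in the RAm3 library and the Hdac7 value of 0.520 FPKM in the RAm2 library. Each was the highest of its group. A total of 20 groups were examined, and chance flags about 1 in 20.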

How the results depend on the processing

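With median-of-ratios scaling the number of deacetylase genes called was 0 at the 4-cell stage, 0 at the 2-cell stage and 1 for the difference between the R and NT columns, that gene being Hdac2 and none of the 3 called as deposited, and at the 4-cell stage it was also 0 without the filter on low FPKM and without the mean-variance trend. Scaling to spike-ins raised it to 4 at the 2-cell stage and 5 in the R columns, and 2 were called for the difference between stages with the R and RAm columns only. Over the whole table, 1205 genes called at the 4-cell stage became 284 without the filter and 732 with a pseudocount of 0.1, and 7116 at the 2-cell stage became 10690 with spike-ins. In the 2-cell minus 4-cell difference, 786 genes became 502 without the filter and 8087 with the R and RAm columns only, and 2411 in the NT columns became 4613 with spike-ins. Directions turned with median-of-ratios scaling for Hdac6 between DR and D (-0.0155), for Hdac2 (-0.75), Hdac3 (-0.27) and Hdac6 (-0.082) at the 2-cell stage, Hdac2 in the NT columns (-0.041), Hdac3 in the R columns (-0.41) and Hdac3 in their difference (-0.61). They turned with spike-ins for Hdac1 (-1.18), Hdac3 (-1.51) and Hdac6 (-1.33) between DR and D, Hdac8 at the 2-cell stage (0.70), Hdac6 in the NT columns (0.18) and Hdac2 in the R columns (1.66). In the stage difference they turned for Hdac6 with the NT columns only (-0.10) and Hdac8 with the R columns only (0.63). The causes were not tested.

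On leaving out each library, the called deacetylase genes numbered 0 to 1 at the 4-cell stage, 1 to 3 in the R columns and 2 to 3 for the R minus NT difference, and all genes called numbered 63 (without S7) to 1493 at the 4-cell stage, 5386 to 7734 at the 2-cell stage, 707 to 2845 in the NT columns, 7034 to 10331 in the R columns and 318 to 1565 for the stage difference. Signs changed for Hdac1 (-0.18 to 0.038) and Hdac6 (-0.76 to 0.056) at the 4-cell stage, Hdac3 (-0.24 to 0.38) and Hdac6 (-0.17 to 0.14) between DR and D, Hdac2 (-0.055 to 0.13) and Hdac8 (-0.19 to 0.047) at the 2-cell stage, Hdac3 in the NT columns (-0.051 to 0.41), Hdac2 (-0.32 to 0.042) and Hdac3 (-0.076 to 0.42) in the R columns, Hdac3 in their difference (-0.29 to 0.29), and Hdac8 (-0.51 to 0.32) and Hdac10 (-0.074 to 0.43) in the stage difference. Hdac1 at the 2-cell stage was called without any single library (1.11 to 1.40).

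With the column number within the NT or R columns as a replicate block, Hdac1 at the 2-cell stage had a change of 1.23 (adjusted p = 0.0472, limma) and 6511 genes were called. After each gene's group mean was subtracted, libraries with the same number correlated at 0.018 to 0.072. The highest such correlations with another number were -0.021 to 0.042. None of the 6 pairs exceeded 0.1, so the numbers were not taken to pair the libraries. No paired analysis was possible because the 4-cell columns of the α-amanitin experiment share no number between groups, and D and DR share only the number 1. The planned edgeR and DESeq2 fits were not run, and limma voom on recovered reads was run for the 4-cell α-amanitin table in their place. That table lists no spike-ins, so its results have no spike-in scaling. Low reads limited Hdac4, Hdac5, Hdac7, Hdac10 and Hdac11.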
